A study of Mus musculus with 2 samples.

Results

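Cyclins, cyclin-dependent kinases (CDKs) and CDK inhibitors were examined in cultured fibroblastic reticular cells (FRCs), the lymph node fibroblasts whose fibre meshwork carries migrating lymphocytes. The set holds every gene with a cyclin, CDK or CDK inhibitor symbol (Ccn and a letter, Cdk and a number, Cdkn1 to Cdkn3) in the platform's annotation of probe sets that carry 1 gene, less 1 inhibitor gene that the rule leaves out. It came to 49 of 19751 named genes, made up of 24 cyclins, 19 CDKs and 6 inhibitor genes. Cdkn1a is not among them because its probe set is annotated to 2 genes, and Ccnb1 was not analysed here.

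The series has 1 group of 2 microarrays, named replicate 1 and replicate 2 as in the titles, and no second condition. Lymph nodes were taken from C57BL6/J mice that were 4 to 6 weeks old and untreated. Their whole stroma was kept in αMEM plus 10% fetal calf serum over 7 to 10 days. The cells are labelled as purified FRCs. The purification step, the number of animals and the relation between the replicates are not given in the sources used here, so the spread between the arrays may be technical. Values are log2 intensities after robust multi-array averaging (RMA), and differences are replicate 2 minus replicate 1. With 1 array on each side no test was possible and no p-value is given.

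A cyclin binds and activates a CDK, and successive pairs drive the cell through its division cycle. D-type cyclins with CDK4 and CDK6 act in G1, E-type cyclins with CDK2 at the entry into S phase, and A-type and B-type cyclins with CDK1 and CDK2 in S phase, G2 and mitosis. INK4 proteins block CDK4 and CDK6, and Cip/Kip proteins bind cyclin-CDK complexes more widely. A separate branch of the families (CDK7, CDK8, CDK9, CDK12, CDK13 and their cyclins) acts on RNA polymerase II and its cofactors, and CDK7 with its cyclin also activates the CDKs of the division cycle. Fibroblasts taken from tissue into serum are known to divide, and their G1 cyclins are known to respond to serum growth factors.

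Nearly the whole set gave signal. An array's background limit was the 95th percentile of its 1035 olfactory receptor probe sets, taken as genes that a fibroblast does not transcribe, and lay at 7.17 on replicate 2 and 7.15 on replicate 1. Above it on both arrays lay 46 of the 49 genes, against 67.3% of all 19751 genes. A stricter limit, the 95th percentile of 36 probe sets of tissue-restricted genes (8.27 on replicate 2 and 8.21 on replicate 1), was passed on both arrays by 41 of the 49, against 48.5% of all genes. The first limit is lenient, since 16 of the 36 tissue-restricted genes passed it on both arrays. The 3 genes below the first limit were Ccnb3 (5.23 on replicate 2 and 4.99 on replicate 1), Cdk15 (6.64 and 6.47) and Ccna1 (7.02 and 6.98), each below it on both arrays. Cyclins B3 and A1 are known mainly from germ cells. Ccna1 lay 0.16 below the mean limit of 7.16 and Cdk3, the nearest gene above it, 0.20 above. Because probes differ in how strongly they bind, the level of a gene was not set against that of another.

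**Figure D1:**
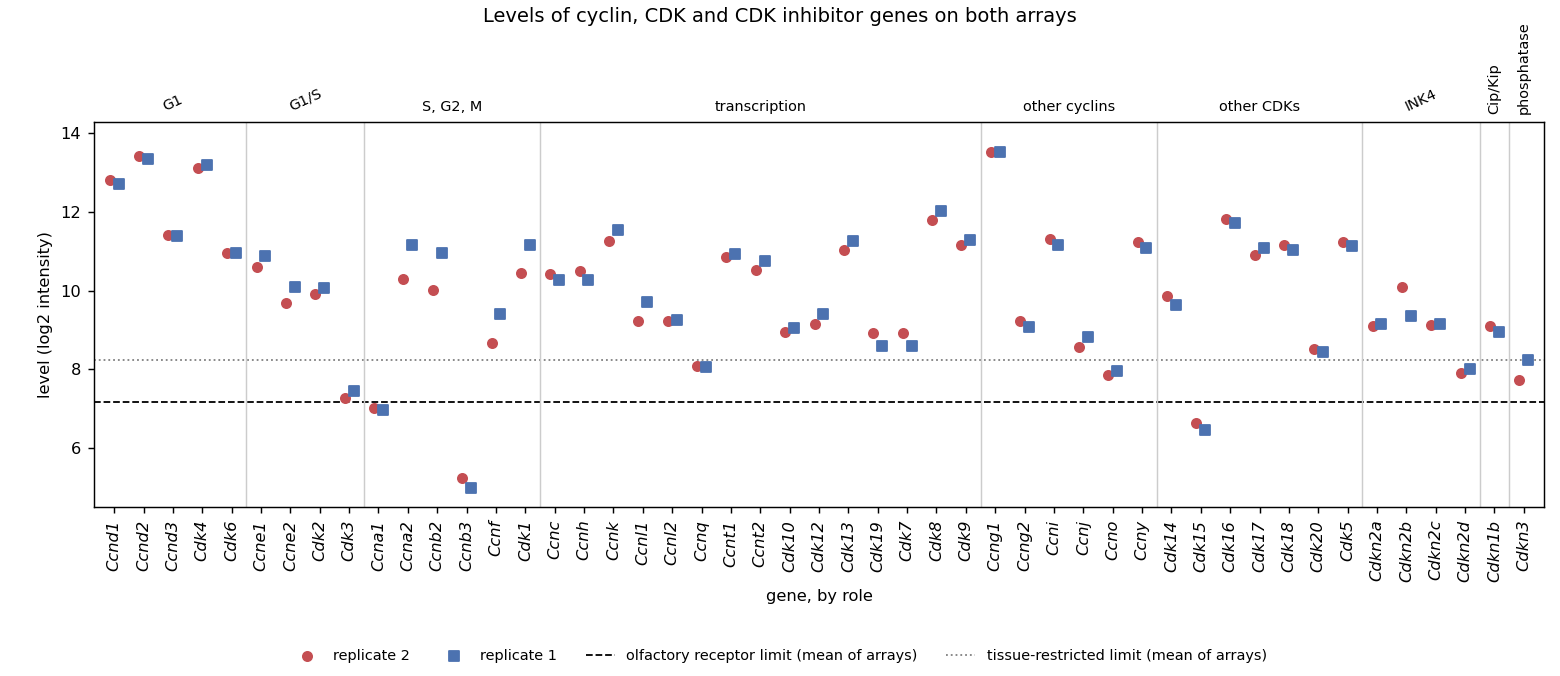
Level (log2 intensity, y axis) of each of the 49 genes (x axis, grouped by role) on replicate 2 (circles) and replicate 1 (squares), with the mean olfactory receptor limit (dashed, 7.16) and the mean tissue-restricted limit (dotted, 8.24). Ccna1, Ccnb3 and Cdk15 lie below the dashed line, and the wide gaps between the symbols are those of Ccna2, Ccnb2, Ccnf, Cdk1 and Cdkn2b.

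Between the arrays, 5 genes of the set differed by 1.5-fold or more. Lower on replicate 2 were Ccna2, Ccnb2, Ccnf and Cdk1, which are all 4 of the S, G2 and M genes above the limit, and higher on replicate 2 was the INK4 gene Cdkn2b. That is 4 of the 46 genes above the mean limit on the lower side, where 1.91% of all 13577 genes above it were lower, and 1 of 46 on the higher side, where 2.87% of all genes were higher. The median difference of the 46 genes was -0.06, against 0.0046 for all 13577, and 27 of the 46 (58.7%) had a value below 0, against 48.8% of all. At 2-fold, 0 of the 46 genes differed, with a background of 0.368% of all genes lower and 1.05% higher. Here and below, shares of all genes with a lower or higher difference are shares of the 13577 genes above the mean limit. Lower signal on a bulk array cannot tell fewer cells with a transcript from less of it per cell.

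**Figure D2:**
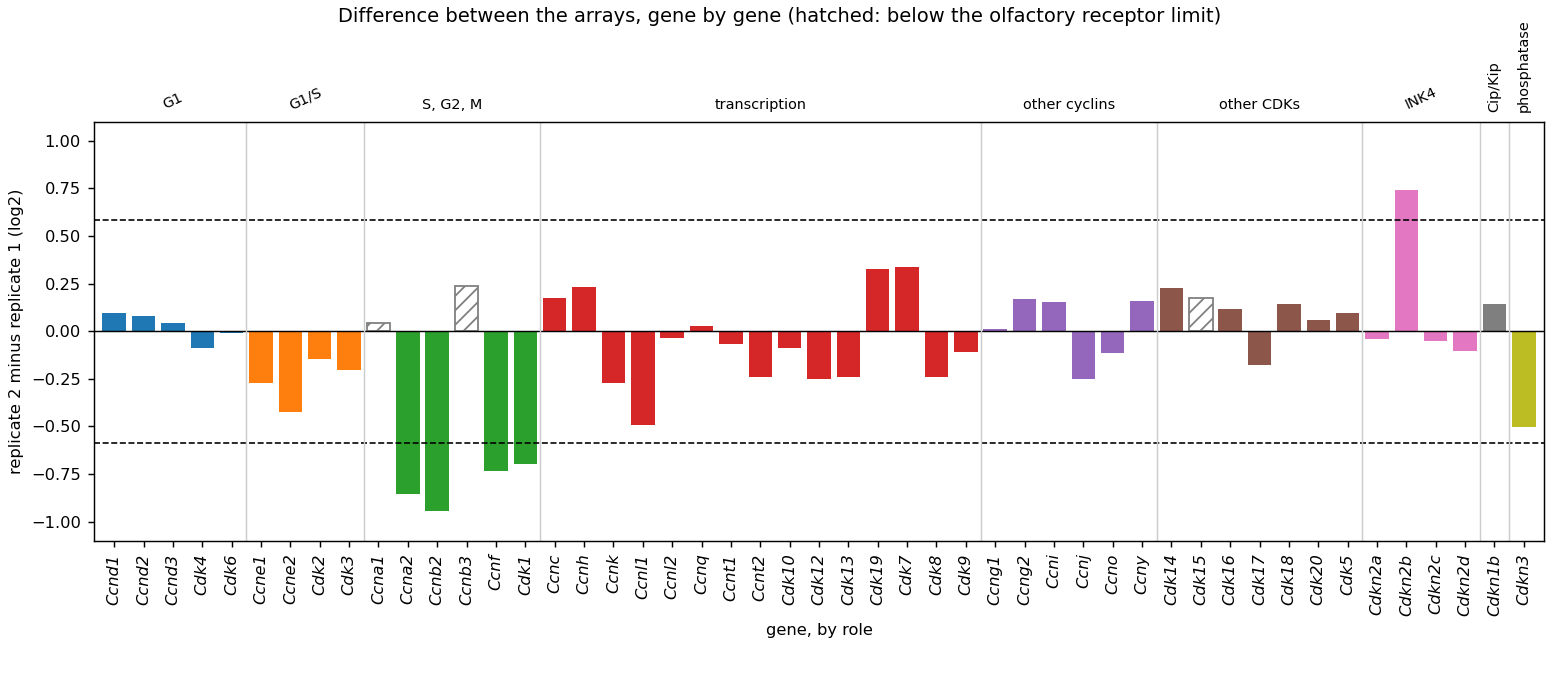
Replicate 2 minus replicate 1 on the log2 scale (y axis) for each of the 49 genes (x axis, grouped and coloured by role), with dashed lines at 1.5-fold and hatched bars for the 3 genes below the olfactory receptor limit. Ccna2, Ccnb2, Ccnf and Cdk1 pass the lower line and Cdkn2b the upper one.

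The genes of the first cyclin-CDK pairs of the cycle, those of G1, differed little between the arrays. Cyclin D1 (Ccnd1), the D-type cyclin best known as a target of growth factor signals, was at 12.81 on replicate 2 and 12.72 on replicate 1. Cyclin D2 (Ccnd2) was at 13.44 on replicate 2 and 13.35 on replicate 1, and cyclin D3 (Ccnd3) at 11.43 and 11.38. All 3 D-type cyclins were above both limits, and each was higher on replicate 2 by less than 0.10. The kinase gene Cdk4 was at 13.11 on replicate 2 and 13.20 on replicate 1, and Cdk6 at 10.96 and 10.97. The 5 differences ran from -0.09 to 0.10 with a median of 0.045, and their median size, 0.081, stood beside 0.11 for all genes above the mean limit.

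At the entry into S phase the values were lower on replicate 2, within 1.5-fold. Cyclin E1 (Ccne1), which activates CDK2, was at 10.61 on replicate 2 and 10.88 on replicate 1, a difference of -0.27. Cyclin E2 (Ccne2) was at 9.68 on replicate 2 and 10.10 on replicate 1, a difference of -0.42 (1.34-fold), and 3.59% of all genes had a lower value. Cdk2 itself was at 9.92 on replicate 2 and 10.06 on replicate 1. These 3 genes passed the stricter limit on both arrays. Cdk3, which RefSeq lists as a transcribed pseudogene in the mouse, was at 7.26 on replicate 2 and 7.46 on replicate 1, above the first limit only. All 4 differences of the group were below 0, against 48.8% of all genes above the mean limit, with a median of -0.24.

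The S, G2 and M genes stood lowest on replicate 2. Cyclin A2 (Ccna2), the somatic A-type cyclin of S phase and G2, was at 10.31 on replicate 2 and 11.17 on replicate 1 (mean 10.74 ± 0.61 SD, n = 2). The difference of -0.86 is 1.81-fold, and 0.663% of all genes had a lower one. Cyclin B2 (Ccnb2), a mitotic partner of CDK1, was at 10.02 on replicate 2 and 10.97 on replicate 1 (mean 10.49 ± 0.67 SD, n = 2), and its difference of -0.95 (1.93-fold) was the largest in the set. Only 0.457% of all genes had a lower difference. Cyclin F (Ccnf), an F-box protein of a ubiquitin ligase that is not known to activate a CDK, was at 8.68 on replicate 2 and 9.41 on replicate 1 (mean 9.04 ± 0.52 SD, n = 2), which is -0.73 or 1.66-fold. Cdk1, the kinase of mitosis, was at 10.46 on replicate 2 and 11.15 on replicate 1 (mean 10.81 ± 0.49 SD, n = 2), which is -0.70 or 1.62-fold. The 4 genes had a median difference of -0.79, and each was above both limits on both arrays. The other 2 measured genes of the group, Ccna1 and Ccnb3, lay below the limit and differed by 0.04 and 0.23, in the other direction.

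Cdkn3, which is grouped with the inhibitors by symbol but encodes a phosphatase that removes an activating phosphate from CDKs, was at 7.74 on replicate 2 and 8.24 on replicate 1. Its difference of -0.50 (1.42-fold) did not reach 1.5-fold, and 2.61% of all genes had a lower one. It passed the stricter limit on replicate 1 only, and there narrowly.

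Promoters of Ccnb2, Ccnf and Cdk1 are shown because these genes were lower by 1.5-fold or more. That of Cdkn2b is shown because it was the 1 gene higher by 1.5-fold. Those of Ccna1 and Ccnb3, which lay below the limit, are not printed. RefSeq promoters (GRCm38.p6, 250 bases before to 50 after the annotated start) were found for 39 of the 49 genes, which have 43 promoters. Ccna2 had no entry. The stretch from -200 to 20 around the start (1 is the first transcribed base) is given for each gene on its own strand, 5′ to 3′, and all 4 genes lie on the minus strand. Capitals mark matches, on either strand, to the cell cycle genes homology region (CHR, searched as TTTGAA and TTCGAA), to the CCAAT box (searched as CCAAT, which reads ATTGG on the other strand) and to the E2F site (searched as TTTCCCGC, TTTCGCGC, TTTGCCGC and TTTGGCGC). The CHR and the CCAAT box are known from promoters of G2 and M genes, and E2F sites from those of G1/S genes. The windows are chr9:70421535-70421754 for Ccnb2, chr17:24251390-24251609 for Ccnf, chr10:69352893-69353112 for Cdk1 and chr4:89311013-89311232 for Cdkn2b.
Ccnb2: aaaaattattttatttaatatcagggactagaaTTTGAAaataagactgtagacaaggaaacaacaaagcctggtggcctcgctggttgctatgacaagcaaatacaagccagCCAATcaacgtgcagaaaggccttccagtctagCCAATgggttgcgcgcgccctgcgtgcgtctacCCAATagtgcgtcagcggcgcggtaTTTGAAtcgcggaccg
Ccnf: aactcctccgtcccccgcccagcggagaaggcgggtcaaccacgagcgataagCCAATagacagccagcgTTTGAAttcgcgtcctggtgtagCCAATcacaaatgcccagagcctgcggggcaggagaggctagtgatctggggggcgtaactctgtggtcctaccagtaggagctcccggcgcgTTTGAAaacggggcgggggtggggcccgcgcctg
Cdk1: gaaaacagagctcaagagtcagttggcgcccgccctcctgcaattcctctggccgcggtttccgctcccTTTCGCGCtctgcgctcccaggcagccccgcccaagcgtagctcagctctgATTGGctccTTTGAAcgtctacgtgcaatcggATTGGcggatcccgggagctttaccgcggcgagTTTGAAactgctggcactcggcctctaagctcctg
Cdkn2b: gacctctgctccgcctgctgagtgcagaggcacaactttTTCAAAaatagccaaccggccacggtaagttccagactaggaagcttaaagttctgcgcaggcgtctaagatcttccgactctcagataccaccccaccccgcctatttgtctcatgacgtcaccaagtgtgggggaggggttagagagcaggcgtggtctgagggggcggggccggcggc

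Ccnb2 held 3 CCAAT boxes on the forward strand, starting at -87, -54 and -21, and CHR matches starting at -167 and 5. Ccnf held CCAAT boxes starting at -147 and -107 and CHR matches starting at -130 and -14. Cdk1 held the CCAAT box on the reverse strand, with first bases at -208 (outside the printed stretch), -80 and -48, CHR matches starting at -71 and -15, and the letters TTTCGCGC from -131. All 3 promoters thus had a CHR match within 20 bases of the annotated start and at least 2 CCAAT boxes upstream of it. This placing was read off after the 3 promoters were chosen, and its share among all promoters was not counted. No match overlapped another. Cdkn2b had 1 CHR match, on the reverse strand from -161, and no match to the other motifs in this window.

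Letters as short as these occur often. Of all 32851 RefSeq promoters of that length, 19.2% held a CHR match, 37.4% a CCAAT box, 2.26% an E2F match, and 7.52% both a CHR match and a CCAAT box. Among the 43 promoters of the set, 7 held a CHR match, 21 a CCAAT box, 3 an E2F match and 5 both of the first pair. These 5 were those of Ccnb2, Ccnf, Cdk1, Cdkn3 and 1 of the 2 promoters of Cdk16. Of the 5 promoters of the S, G2 and M group, 3 thus held both, and those of Ccna1 and Ccnb3 held no CHR match. Of the 13 promoters of transcription cyclins and CDKs, 0 held a CHR match and 6 a CCAAT box. The E2F letters were found in promoters of Cdk1, Cdk2 and Cdkn2a.

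**Figure D3:**
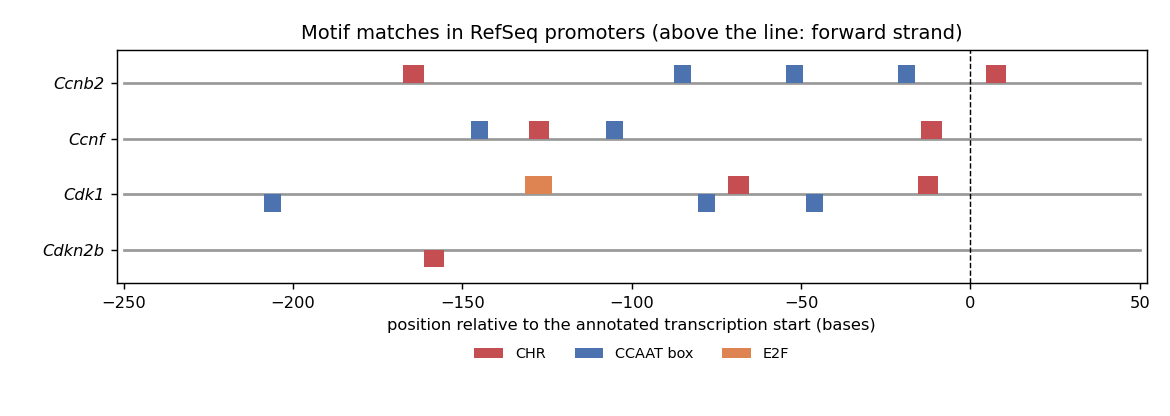
Matches to the CHR, CCAAT box and E2F letters in the RefSeq promoters of Ccnb2, Ccnf, Cdk1 and Cdkn2b, with the position relative to the annotated start in bases on the x axis, forward-strand matches above each line and reverse-strand matches below it. Ccnb2, Ccnf and Cdk1 each have a CHR match near the start, and CCAAT boxes upstream, 3 in Ccnb2, 2 in Ccnf and 3 in Cdk1.

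Among the INK4 inhibitors, Cdkn2b passed 1.5-fold and its 3 relatives did not. Cdkn2b, which encodes INK4b and is known in epithelial cells as a gene switched on by TGF-beta, was at 10.10 on replicate 2 and 9.36 on replicate 1 (mean 9.73 ± 0.53 SD, n = 2). The difference of 0.74 is 1.67-fold, and 1.66% of all genes had a higher one. Cdkn2a, which encodes INK4a and, from another reading frame, ARF, the p53 activator, was at 9.11 on replicate 2 and 9.15 on replicate 1. It has a single probe set, so the INK4a and ARF transcripts were not told apart. Cdkn2c was at 9.12 on replicate 2 and 9.17 on replicate 1, and Cdkn2d at 7.91 and 8.02, the last above the first limit only. Cdkn2a, Cdkn2c and Cdkn2d thus had differences from -0.10 to -0.04.

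The Cip/Kip gene measured here, Cdkn1b, encodes KIP1, an inhibitor of CDK2 complexes that is known to accumulate in resting cells. It was at 9.11 on replicate 2 and 8.96 on replicate 1, a difference of 0.14. Its probe sets lay apart, at 10.42 on replicate 2 and 10.19 on replicate 1 for the brighter and at 7.79 and 7.74 for the dimmer, and both were above the first limit.

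The transcription cyclins and CDKs were all above the limit, and 0 of 15 reached a 1.5-fold difference. Their median difference was -0.09, with 10 values below 0 and 5 above, and the group ran from -0.49 to 0.34. Among all genes above the mean limit, 48.8% had a value below 0. Cdk7, the kinase of TFIIH that also activates other CDKs, was at 8.93 on replicate 2 and 8.59 on replicate 1, and its cyclin Ccnh at 10.51 and 10.28. Both were higher on replicate 2, by 0.34 and 0.23. The Cdk7 value averages a brighter probe set at 9.82 on replicate 2 and 9.76 on replicate 1 with a dimmer one at 8.04 and 7.42, and the dimmer probe set carried the difference (0.63 against 0.05).

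The Mediator kinases, which share cyclin C, went opposite ways. Cdk8 was at 11.79 on replicate 2 and 12.03 on replicate 1, a difference of -0.24. Its paralogue Cdk19 was at 8.92 on replicate 2 and 8.59 on replicate 1, a difference of 0.33, and 7.70% of all genes had a higher one. Cyclin C (Ccnc) was at 10.44 on replicate 2 and 10.26 on replicate 1. These 3 differences all stayed within 1.5-fold, and whether those of Cdk8 and Cdk19 differ from each other could not be tested with 1 array on each side.

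Genes for the kinases of transcription elongation lay slightly lower on replicate 2. Cdk9, the kinase of P-TEFb that releases paused polymerase, was at 11.17 on replicate 2 and 11.28 on replicate 1. Its cyclins Ccnt1 and Ccnt2 were at 10.87 and 10.52 on replicate 2, against 10.93 and 10.76 on replicate 1. Cyclin K (Ccnk), the partner of CDK12 and CDK13, was at 11.27 on replicate 2 and 11.54 on replicate 1, and Cdk13 at 11.03 and 11.27. Cdk12 was at 9.15 on replicate 2 and 9.40 on replicate 1, averaged over a probe set at 10.29 on replicate 2 and 10.63 on replicate 1 and another at 8.01 and 8.17. The differences of Ccnk, Cdk12 and Cdk13, a cyclin and the kinases it binds, were -0.27, -0.25 and -0.24. Of all genes above the mean limit, 7.62% had a lower difference than Ccnk, 8.48% than Cdk12 and 9.12% than Cdk13. The Cdk12 value averages probe sets that differed by -0.34 and -0.16.

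Cyclin L1 (Ccnl1), which with CDK11 is known from RNA splicing, had the largest difference of the transcription group. It was at 9.23 on replicate 2 and 9.72 on replicate 1, which is -0.49 or 1.41-fold, and 2.67% of all genes had a lower value. Its paralogue Ccnl2 was at 9.22 on replicate 2 and 9.25 on replicate 1. Cdk10 was at 8.96 on replicate 2 and 9.05 on replicate 1, and its partner cyclin Q (Ccnq) at 8.08 and 8.05, above the first limit only.

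The remaining cyclins lay above the limit on both arrays and within 1.5-fold. Cyclin G1 (Ccng1), a well-known p53 target, was at 13.53 on replicate 2 and 13.52 on replicate 1. Cyclin G2 (Ccng2), known from cells leaving the cycle, was at 9.24 on replicate 2 and 9.07 on replicate 1. Cyclin Y (Ccny), a membrane-bound partner of CDK14 and CDK16 known from Wnt receptor phosphorylation, was at 11.24 on replicate 2 and 11.08 on replicate 1. Cyclins G1, G2 and Y were thus each level with or slightly higher on replicate 2. Cyclin I (Ccni) was at 11.30 on replicate 2 and 11.15 on replicate 1 over 2 probe sets that differed by 0.11 and 0.19. Cyclin J (Ccnj) was at 8.57 on replicate 2 and 8.82 on replicate 1. Cyclin O (Ccno), known from multiciliated cells, was at 7.85 on replicate 2 and 7.96 on replicate 1, below the stricter limit on both arrays.

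Of the 7 CDKs outside these groups, 6 were above both limits and 5 of these 6 were higher on replicate 2, with a median difference of 0.11. Of all genes above the mean limit, 6948 of 13577 were higher on replicate 2. Cdk5, best known from neurons, was at 11.24 on replicate 2 and 11.15 on replicate 1. Cdk14, a kinase partner of cyclin Y, was at 9.86 on replicate 2 and 9.63 on replicate 1, and its difference of 0.23 was the largest of the group. Another partner of cyclin Y, Cdk16, was at 11.84 on replicate 2 and 11.72 on replicate 1. Ccny, Cdk14 and Cdk16 were each a little higher on replicate 2, by 0.12 to 0.23. Such values are common, since 13.1% of all genes had a higher difference than Cdk14, 19.5% than Ccny and 25.4% than Cdk16. The Cdk16 relatives Cdk17 and Cdk18 were at 10.91 and 11.17 on replicate 2, against 11.08 and 11.03 on replicate 1. Cdk20, known from cilia, was at 8.51 on replicate 2 and 8.45 on replicate 1.

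**Figure D4:**
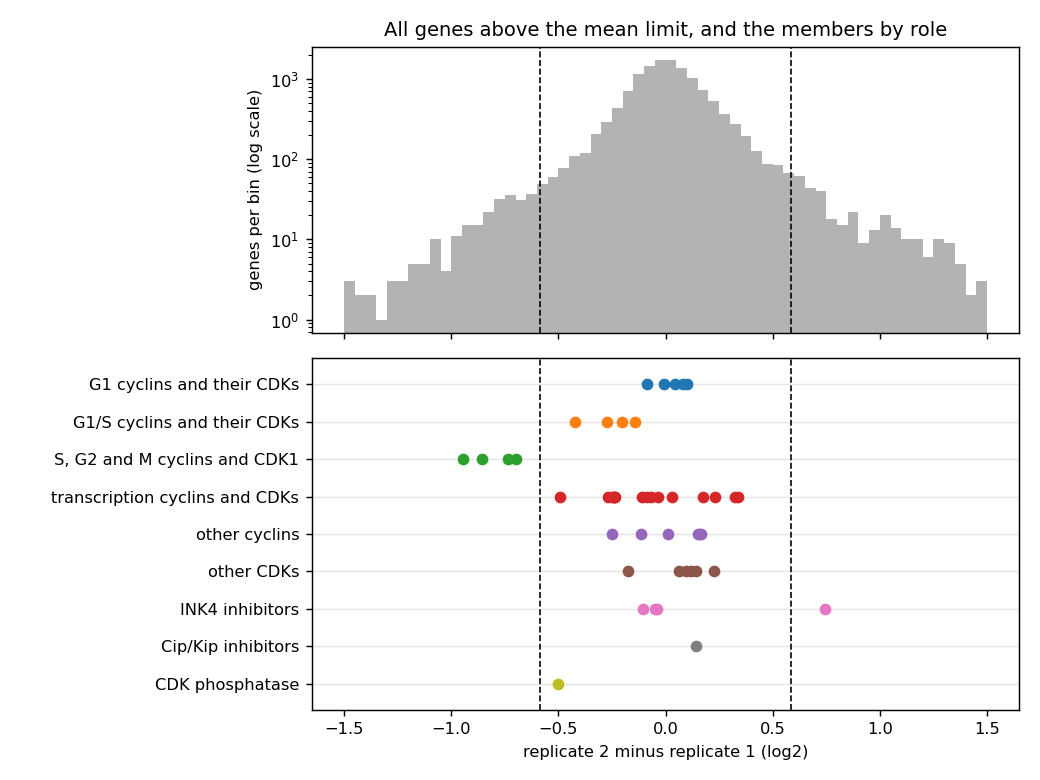
Top, number of genes per bin of the difference replicate 2 minus replicate 1 (x axis, log2) among the 13577 genes above the mean limit, on a log scale, with 65 genes beyond 1.5 not drawn. Bottom, the 46 genes of the set above that limit by role. The S, G2 and M genes lie between -0.95 and -0.70, apart from the G1 genes, which lie between -0.09 and 0.10, and dashed lines mark 1.5-fold.

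Regulators and partners of the CDKs outside the set were taken from 7 lists with 53 genes, of which 50 had a single-gene probe set and 48 lay above the limit on both arrays. Of the 49 above the mean limit, 6 were lower on replicate 2 by 1.5-fold or more and 0 higher, with the same backgrounds of 1.91% and 2.87%, and their median difference was -0.14. The lists were written with earlier results of these data known, so these counts are not independent of the data. The measured genes that did not pass the limit on both arrays were Cables1 (6.47 on replicate 2 and 6.64 on replicate 1) and Cdc25c. Cdc25c encodes a phosphatase that activates CDK1, and was at 6.77 on replicate 2 and 7.89 on replicate 1, at least 1.64-fold lower with replicate 2 set to its limit. Cdc25c passed the stricter limit on neither array.

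Most of the Rb and E2F genes differed little. E2f1, an activator E2F, was at 10.36 on replicate 2 and 10.35 on replicate 1, and the Rb gene Rb1, which holds E2Fs in check, at 10.05 and 10.03. E2f8, an atypical E2F that represses, was at 8.44 on replicate 2 and 9.39 on replicate 1, a difference of -0.95. Its relative E2f7 had -0.54, short of 1.5-fold. Over the 13 genes of the Rb, E2F and DP list, 1 was past the fold and the median difference was 0.01.

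Genes for 2 known activators of G2 and M transcription were lower on replicate 2. Foxm1 was at 9.09 on replicate 2 and 9.89 on replicate 1 (1.74-fold), and Mybl2, which encodes B-MYB and works with it on the CHR, at 9.18 and 9.79 (1.53-fold). These were the 2 of 7 genes of the DREAM and MMB complex list past the fold. The list had a median of -0.21 and all 7 values below 0, against 48.8% of all genes, and the one nearest to 0 was that of Lin37 (-0.06). Cdc20, the activator of the ubiquitin ligase that destroys mitotic cyclins, was at 9.18 on replicate 2 and 9.90 on replicate 1 (1.64-fold). Btg2, an antiproliferative p53 target, was at 9.81 on replicate 2 and 10.41 on replicate 1 (1.52-fold). It was the 1 of 5 genes of the p53 axis list past the fold, and that list had 3 values below 0 and 2 above. The pathway genes past the fold thus include the repressor gene E2f8 and the antiproliferative gene Btg2 as well as activators. Whether these functions bear on the lower values of Ccna2, Ccnb2, Ccnf and Cdk1 was not tested. Among CDK subunits and ubiquitin ligases 1 of 8 was past the fold, and among CDK tyrosine kinases and phosphatases 1 of 5. Among partners of the transcription kinases 0 of 7 were past the fold, and among CDK5 activators 0 of 4.

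**Figure D5:**
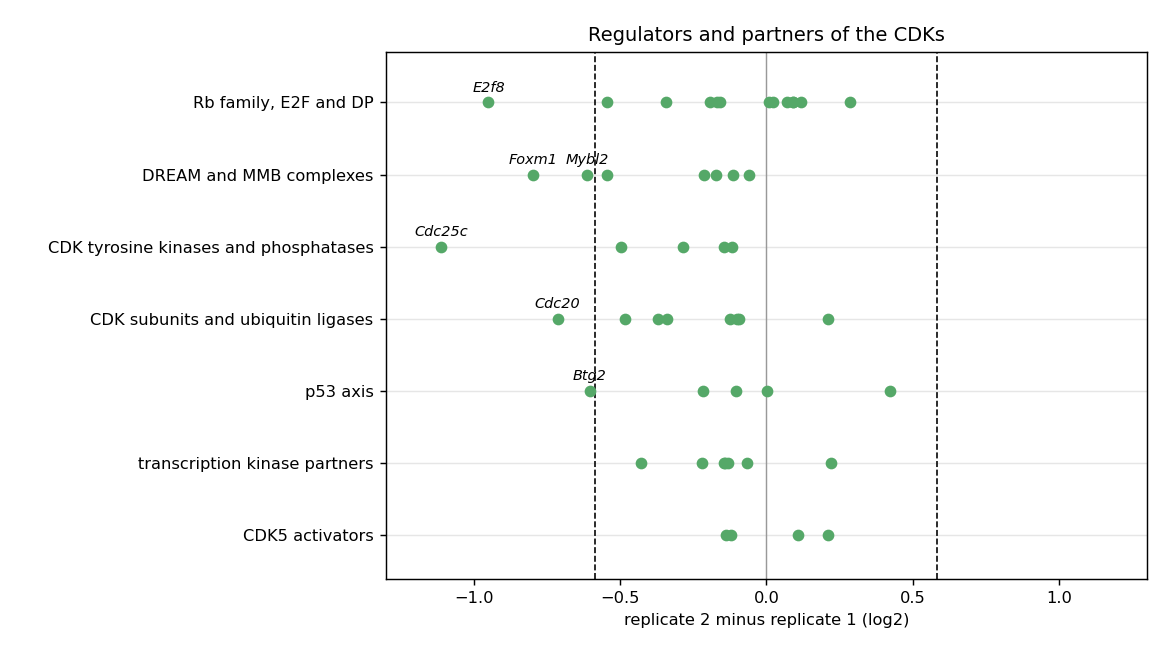
Replicate 2 minus replicate 1 on the log2 scale (x axis) for the 49 regulators and partners of the CDKs above the mean limit, 1 row for each of 7 lists, with dashed lines at 1.5-fold. Genes past 1.5-fold are named, and all 6 lie on the lower side.

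Cell markers were read on the same arrays. All 8 FRC and matrix markers passed both limits and all 8 were higher on replicate 2, from 0.10 for Pdgfra to 1.25 for Col3a1, and their summed intensity was 42031 on replicate 2 and 33392 on replicate 1. Of all genes, 48.5% passed the stricter limit on both arrays, and 6948 of the 13577 above the mean limit were higher on replicate 2. Of 7 leukocyte markers, 2 (Cd3e and Csf1r) exceeded the first limit on each array and 0 the stricter one on both, with summed intensities of 837 on replicate 2 and 858 on replicate 1 and Ptprc at 6.47 and 6.41. Of 7 endothelial markers, 3 (Cdh5, Kdr and Flt4) exceeded the first limit on each array and 0 passed the stricter one on both, Flt4 passing it on replicate 1 only. Their sums were 1132 on replicate 2 and 1231 on replicate 1. Flt4 was at 7.79 on replicate 2 and 8.41 on replicate 1, a difference of -0.61 (1.53-fold), and Cdh5 at 7.53 and 8.05, a difference of -0.52 (1.44-fold). Tek lay the other way, at 7.68 on replicate 2 and below the limit on replicate 1, at least 1.45-fold higher on replicate 2. Of 4 epithelial markers, 1 (Krt14) exceeded the first limit on each array and 0 the stricter one, with sums of 483 on replicate 2 and 482 on replicate 1. Below the first limit on both arrays were Ptprc, Ms4a1, Cd4 and Itgam of the leukocyte markers, Prox1 and Lyve1 of the endothelial, and Epcam and Esrp1 of the epithelial. Tyrobp, Pecam1, Tek and Cdh1 passed it on 1 array only. The part of the cells these marker lists stand for in the lower values of Ccna2, Ccnb2, Ccnf and Cdk1 was not tested.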

How the data were processed

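Total RNA of 2 samples of cultured FRCs was hybridised to arrays as biotin-labelled single-stranded cDNA, per the labels' protocols. The deposited table gives 1 linear intensity for each of 24679 probe sets and array, made by the authors with RMA (version not stated), per the submitters' processing notes. Which arrays were normalised together and the genome build are not given in the sources used here. RMA evens out whole distributions and compresses differences at low signal, and the median intensities were 285.7 on replicate 2 and 286.0 on replicate 1. The number of arrays, 2, limits the precision.

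Log2 intensities were computed with Python 3.11.15, numpy 2.4.6 and pandas 2.3.3. Of the probe sets, 21354 carried 1 gene in the platform annotation, 1275 several and 2050 none listed, and only the first kind was used. Gene identifiers of 21277 of them matched the RefSeq gene table (GRCm38.p6), and 0 symbols changed. Probe sets of a gene were averaged, and 5 of the 49 genes had more than 1. Differences were counted over genes whose mean level exceeded 7.16, the mean of the 2 limits. Every gene of the set is named. Pathway genes are named if past 1.5-fold or if not above the limit on both arrays. E2f1, Rb1, E2f7 and Lin37 are named as comparators, chosen after their values were seen. The genes, lists and limits were chosen with earlier results of these data known. Promoters printed are those of the genes past 1.5-fold that have an entry, Cdkn2b having been added after its values were seen. Counting was tested on simulated data. Alternatives were other percentiles and genes for the limit, the highest or lowest probe set, other level filters, 2-fold, quantile normalisation, removal of a loess trend (span 0.3, statsmodels 0.14.6), and each array left out.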

Additional observations from a re-analysis of the deposited data

How the results depend on the processing

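At 2-fold in place of 1.5-fold, 0 genes of the set were lower and 0 higher on replicate 2, and on measured values 1 pathway gene (Cdc25c) was lower, and 50 of all genes were lower and 142 higher. With replicate 2 set to its limit, Cdc25c was at least 1.64-fold lower, short of 2-fold. With the lowest probe set of each gene, 2 genes of the set were higher, Cdk7 joining Cdkn2b. Under the other alternatives the counts for the set were 4 lower and 1 higher, and Ccna2, Ccnb2, Ccnf, Cdk1 and Cdkn2b stayed past 1.5-fold under all 4 probe set and normalisation alternatives. The count of the set above the limit lay between 41 and 47 of 49 under all 7 alternatives, and was 46 with either array left out. Median differences moved by less than the median SD of their genes under every alternative run. Of the 196 alternative values for differences of single genes, 7 moved by more than the SD of the 2 arrays, those of Ccng1, Cdk6, Cdk7 and Cdk10, and 0 of the genes past 1.5-fold changed sign. No paired analysis was possible because the series has 1 group. Signal over background limits Cdk3, Ccnq, Ccno, Cdkn2d and Cdkn3, which did not pass the stricter limit on both arrays, and each difference rests on 1 array a side.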
